A study of Mus musculus with 40 samples.

Results

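Acetylation of histone H3 at lysine 27 (H3K27ac) was compared between Brwd1 knockout (KO) and wild type (WT) small pre-B cells by ChIP-seq. The comparison rests on the libraries whose titles name H3K27ac, 4 of the 40 samples of the series, with 2 KO and 2 WT libraries described as biological replicates. The cells were taken without culture from bone marrow by flow sorting, from WT mice or from Brwd1-/- mice, with the same number of cells stated for each ChIP. The labels match the same earlier input sample to all 4 libraries, WT and KO. The labels give no strain, age, sex or number of animals, and nothing in them tells how Brwd1 was deleted. The p-values below therefore measure the spread between these libraries. The other samples hold CTCF, cohesin proteins, H3K4me1, inputs and cells treated with oligomycin, and H3K4me1 is used below as the most similar comparison. H3K27ac was measured as deposited read counts over 240561 merged regions, with 27183753 and 28358008 reads in the WT libraries and 23013317 and 21859316 in the KO libraries.

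H3K27ac is a mark of active promoters and enhancers, written by the acetyltransferases p300 and CBP. H3K4me1 is the mark of enhancers, primed or active, and at active genes it flanks the start rather than covering it. BRWD1 is a chromatin reader with bromodomains that bind acetylated histones, and in small pre-B cells it is known for its part in the step from proliferation to light chain gene recombination.

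Some labels of these libraries disagree with one another. The titles and descriptions of the H3K27ac KO libraries say knockout, while their genotype field says WT. The peak lists deposited for the H3K27ac KO libraries carry inside them the sample names of H3K4me1, and those of the H3K4me1 WT libraries carry the names of H3K27ac in Brwd1 knockout, whereas the H3K27ac WT and H3K4me1 KO lists carry their own names. The libraries were grouped by title here, and KO stands for the libraries labelled knockout by title throughout. Without the pair in doubt no KO library of H3K27ac would remain. The count columns moved with the lists of the same title: of 5541 regions with a peak in both lists titled H3K27ac KO and in no WT consensus, 2111 were called higher in the KO counts and 15 lower. With the lists that carry the H3K27ac knockout name in place of the KO lists, 1003 of 3927 such regions were higher and 407 lower. Regions picked for a peak in one list alone favour higher counts in the column of the same library. These counts therefore only tie lists to columns and do not tell which mark or genotype a title names.

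Over 150114 regions that the H3K27ac and H3K4me1 tables share (each overlapping at least 50% of the other), log2 values correlated at r = 0.989 between the WT replicates and 0.984 between the KO replicates of H3K27ac. Between H3K27ac WT and KO libraries the mean r was 0.969 (Spearman 0.944), against 0.963 between H3K27ac KO and H3K4me1 KO and 0.966 between H3K27ac KO and H3K4me1 WT. These correlations run across regions, which are not independent and share their background. Within 1 kb of a gene start (2883 shared regions) the H3K27ac KO libraries correlated at a mean r of 0.937 with H3K27ac WT, 0.919 with H3K4me1 KO and 0.639 with H3K4me1 WT. The H3K27ac WT libraries were about as close to H3K4me1 KO (mean r 0.932, Spearman 0.881) as to H3K27ac KO (Spearman 0.860), so near starts the likeness did not separate these marks. Those titled H3K4me1 WT stood apart from the rest near starts. The replicates of a group differed slightly beyond sampling noise, with a variance 1.1 times (WT) and 1.06 times (KO) that of counting alone (chi-square p = 9.95e-259 and 2.05e-90). Over 230609 (WT) and 230760 (KO) regions even a slight excess gives a small p. Such a p does not show that the libraries are independent. Each library was counted once, as the labels describe them as biological replicates. The fit used below gave a common dispersion, its measure of spread beyond counting, of 0.000307.

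Few of the H3K27ac regions lay at promoters. The median region was 148 bp long, 831 of the 240561 overlapped a gene start, and 0.233% and 0.233% of the WT reads and 0.20% and 0.199% of the KO reads fell there. For H3K4me1, 3539 of 180017 regions overlapped a start, with 3.50% and 3.54% of the reads of the WT libraries. The starts of the housekeeping gene Gapdh, of the recombinase gene Rag2 and of Ikzf1 had no region within 1 kb in the H3K27ac table. Active promoters, which H3K27ac is known to cover, were thus thinly represented in all 4 H3K27ac libraries. Within 1 kb of a start lay 2.58% and 2.59% of the WT reads and 3.0% and 3.03% of the KO reads. That gap came from a single 206 bp region upstream of Crebzf (chr7:97590418-97590623 on mm9), which held 5223 and 5345 CPM (read counts scaled to the size of the library) in WT and 8819 and 9262 in KO. Without it the shares were 2.09% in each WT library and 2.10% in each KO library.

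Of 235173 regions tested with edgeR's quasi-likelihood test, 38783 (16.5%) were called at an adjusted p (Benjamini-Hochberg) under 0.05. In KO 13880 regions (5.9%) were higher and 24903 (10.6%) lower. The changes called lower were mostly small, with a median log2 fold change of −0.49 and 7.88% of them at 2-fold or more, while those called higher had a median of 0.88 and 40.5% at 2-fold or more. In nearly all called regions the KO and WT libraries did not overlap, for 13838 gains and 24841 losses. The call itself makes this likely, and the share without overlap over all tested regions is not given here. At a required change of more than 1.5-fold 2657 (1.13%) were higher and 1607 (0.683%) lower. The split between directions moved with the scaling: scaled to library totals 22208 were higher and 15990 lower, and scaled to the regions of lowest signal 7352 and 50914. The median of all regions shifted with it, from 0.02 to 0.13 and to −0.18 on the log2 scale.

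Losses were most frequent at gene starts among the distance classes, and their excess over gains there held under each of the 3 scalings. Of 803 tested regions that overlap a start, 395 (49.2%) were lower and 61 (7.60%) higher in KO, and the median log2 fold change was −0.71, compared with 0.02 for all regions. Regions 1 to 500 bp from a start were lower in 617 and higher in 202 of 2609 cases, with a median of −0.09. Between 500 and 1000 bp the counts were 224 lower and 209 higher of 2154, and over 5 kb from a start 16525 lower and 9478 higher of 161226, with medians of 0.08 and 0.03. Downstream of the start, within 500 bp, 421 of 1402 regions were lower (median −0.22), and within the same distance upstream 196 of 1207 (median 0.00). Scaled to library totals 369 start regions were lower and 75 higher, and scaled to the low regions 491 and 51.

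**Figure D1:**
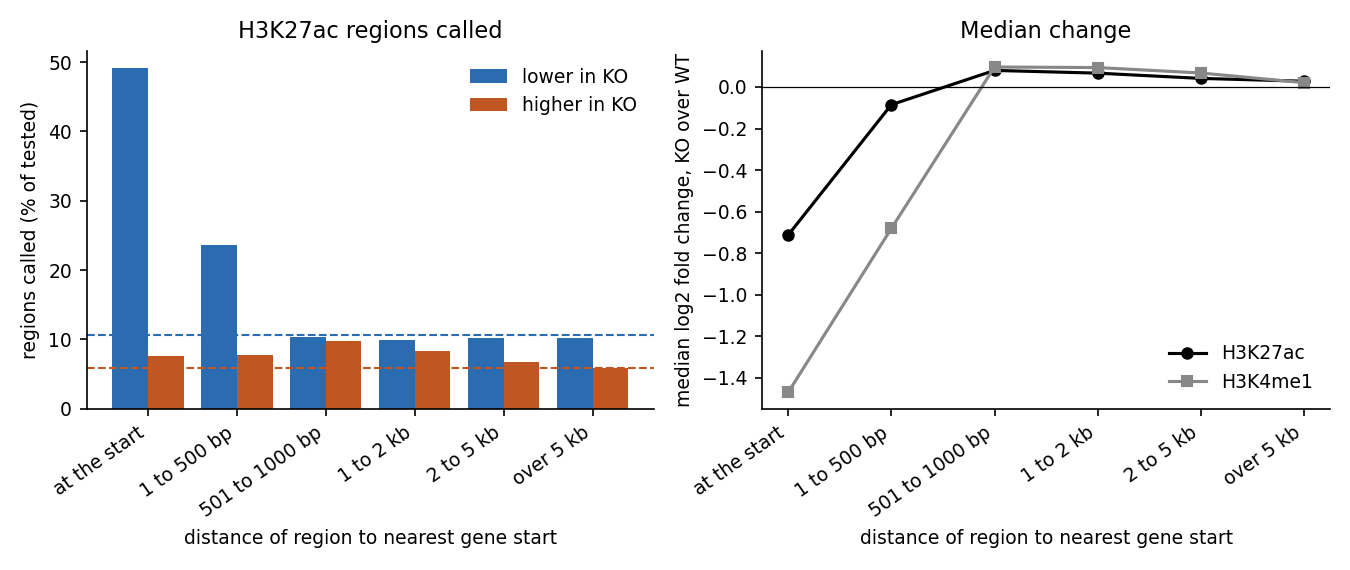
Left, the share of tested H3K27ac regions called lower or higher in KO, by distance to the nearest gene start, with the shares over all regions as dashed lines. Right, the median log2 fold change (KO over WT) in the same bins for H3K27ac and for H3K4me1. At the start 49.2% of H3K27ac regions were lower, against 10.6% of all regions, and both marks had their lowest medians there.

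Long regions differed by their place. Of 263 regions of at least 1 kb within 1 kb of a start, 168 were lower and 26 higher in KO (median −0.81). Of the 893 regions of that length elsewhere, 236 were lower and 256 higher (median 0.02). Of 117228 regions under 150 bp, 7389 (6.30%) were higher and 5050 (4.31%) lower. Over all regions 5.9% were higher and 10.6% lower, so the short regions differed mainly by fewer losses.

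**Figure D2:**
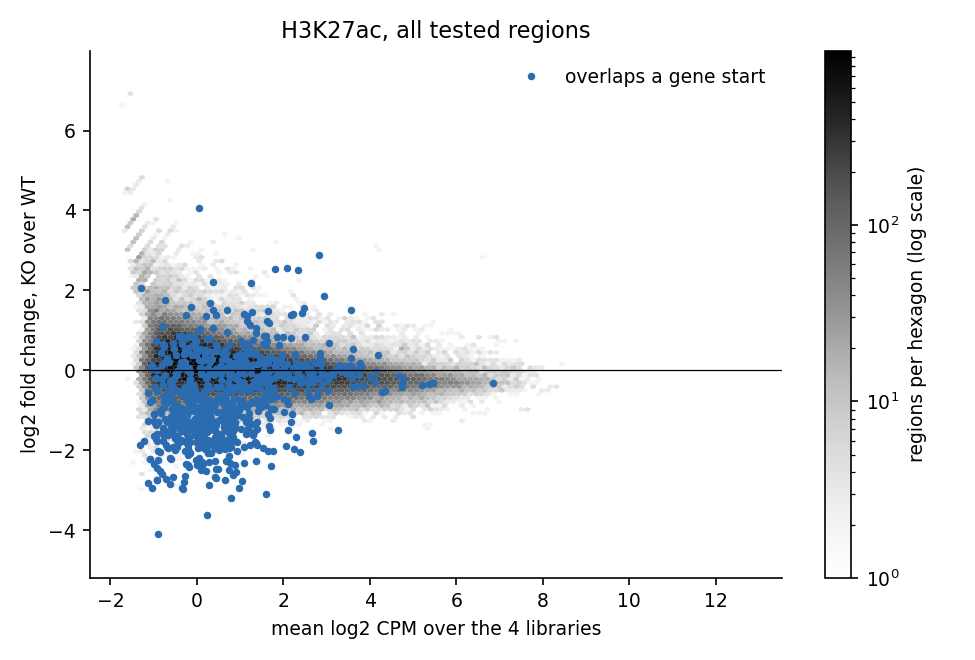
Log2 fold change (KO over WT) against the mean log2 CPM of each of the 235173 tested H3K27ac regions, as counts per hexagon (log grey scale), with the 803 regions that overlap a gene start in blue. The start regions have a median of −0.71, against 0.02 over all regions.

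Among regions near starts, the largest called losses by the rule for named genes lay at Hbp1, Clk1, Pnrc1, Ighj4, Herpud1 and Whsc1l1. At Hbp1, which encodes an HMG-box repressor of cell cycle genes, the region 251 bp inside the gene (chr12:32634420-32635149) held 2.40 and 2.83 CPM in WT and 0.292 and 0.266 in KO. Both KO libraries were low and far from WT, a log2 change of −3.20 ± 0.31 (SE, adjusted p = 1.31e-17). Each KO value rests on few reads, 7 and 6 against 63 and 77 in WT. At the start of Clk1, a kinase of splicing factors (chr1:58480109-58480937), 3.40 and 2.24 CPM in WT stood against 0.292 and 0.311 in KO, a change of −3.20 ± 0.31. At Pnrc1, a nuclear receptor coregulator gene (chr4:33334845-33335588), WT held 2.63 and 2.64 CPM and KO 0.376 and 0.222 (−3.11 ± 0.31). The start of Herpud1, an endoplasmic reticulum stress gene (chr8:96910309-96911257), fell from 3.51 and 2.90 CPM to 0.459 and 0.355 (−2.95 ± 0.27). Whsc1l1, a histone methyltransferase gene, fell by 2.93 ± 0.28 just upstream of its start. The rule for named genes took only regions in which no KO library reached a WT library, so this separation follows from the choice.

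Promoter sequence is shown for lost and gained genes with a single entry in the RefSeq promoter table (GRCm38.p6), which holds 14 of the 19 genes looked up. Each line gives the 250 bases before the start, 5′ to 3′ on the gene's strand. Capitals mark matches, on either strand, to 7 motifs: CCGGAAG (ETS core), the NRF1 motif, TGACGT (CRE core), GGGCGG (GC box), AAGATGGC (YY1), CCAAT (NF-Y) and CAGGTG (an E-box). Herpud1 (chr8:94386179-94386428, plus strand) and Hbp1 (chr12:31950246-31950495, minus strand) stand for losses within 1 kb of a start. Cxcr4 (chr1:128592300-128592549, minus strand) and Cd79a (chr7:24897247-24897496, plus strand) stand for such losses at pre-B genes. Pgk1 (chrX:106186850-106187099, plus strand) and Ubxn2a (chr12:4907554-4907803, minus strand) stand for gained starts.
Herpud1: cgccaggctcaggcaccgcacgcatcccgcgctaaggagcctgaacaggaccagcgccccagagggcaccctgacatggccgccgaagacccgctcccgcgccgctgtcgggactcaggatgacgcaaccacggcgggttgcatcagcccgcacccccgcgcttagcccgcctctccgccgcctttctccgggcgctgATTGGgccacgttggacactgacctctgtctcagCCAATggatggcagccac
Hbp1: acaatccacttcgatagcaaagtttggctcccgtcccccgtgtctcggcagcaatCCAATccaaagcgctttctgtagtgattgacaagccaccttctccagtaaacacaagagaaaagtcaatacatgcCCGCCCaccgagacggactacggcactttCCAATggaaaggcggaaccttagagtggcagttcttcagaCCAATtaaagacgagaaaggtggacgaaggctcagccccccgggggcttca
Cxcr4: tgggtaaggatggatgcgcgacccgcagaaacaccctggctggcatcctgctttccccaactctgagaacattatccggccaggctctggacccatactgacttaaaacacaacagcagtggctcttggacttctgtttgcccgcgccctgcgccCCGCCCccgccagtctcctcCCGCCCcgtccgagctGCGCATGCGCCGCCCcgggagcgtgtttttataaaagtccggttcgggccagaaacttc
Cd79a: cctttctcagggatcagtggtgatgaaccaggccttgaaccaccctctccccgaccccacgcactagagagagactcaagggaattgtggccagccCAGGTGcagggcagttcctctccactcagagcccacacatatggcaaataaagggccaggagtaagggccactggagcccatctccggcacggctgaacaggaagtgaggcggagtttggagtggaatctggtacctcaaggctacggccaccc
Pgk1: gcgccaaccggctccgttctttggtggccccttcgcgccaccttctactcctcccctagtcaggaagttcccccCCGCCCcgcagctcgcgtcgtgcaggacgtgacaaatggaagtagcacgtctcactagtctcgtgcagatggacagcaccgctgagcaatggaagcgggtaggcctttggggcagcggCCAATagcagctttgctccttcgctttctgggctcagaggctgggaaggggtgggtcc
Ubxn2a: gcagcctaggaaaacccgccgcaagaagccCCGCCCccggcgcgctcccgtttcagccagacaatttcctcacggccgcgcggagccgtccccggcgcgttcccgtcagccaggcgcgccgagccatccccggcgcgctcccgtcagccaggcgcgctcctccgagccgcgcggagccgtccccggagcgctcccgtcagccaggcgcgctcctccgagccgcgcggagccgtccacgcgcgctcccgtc
Over all 32851 promoters of the table, the GC box is found in 32.7%, CCAAT in 33.8%, CAGGTG in 17.2% and the NRF1 motif in 3.74%. In the Cxcr4 promoter the NRF1 match overlaps a GC box match by 1 base. Hbp1, which lost H3K27ac, and Pgk1, which gained it, both hold GC box and CCAAT matches.

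Sequence was also compared over the start regions whose gene has a single promoter entry, 402 of the 803. Of these 220 (54.7%) were lower in KO and 25 higher. In the lowest of 4 groups by GC content (33.2% to 56.8%) 42 of 99 were lower, with a median log2 fold change of −0.40. In the second group (57.2% to 64.4%) 55 of 98 were lower, with a median of −0.83. In the third (64.8% to 70.8%) 60 of 95 were lower (median −1.12), and in the highest (71.2% to 88.4%) 63 of 110 (median −0.79). Promoters with the CRE core, present in 6.47% of all promoters, were lower in 44 of 57 cases (median −1.37) against 176 of 345 without it (median −0.74). With the GC box 154 of 258 were lower (−0.97) and without it 66 of 144 (−0.48). For CAGGTG the shares were 35 of 67 and 185 of 335, with medians of −0.75 and −0.88. These are descriptions of overlapping groups and carry no test.

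Genes of the pre-B cell lost H3K27ac at or near their starts in several cases. Cxcr4 encodes the chemokine receptor that holds pre-B cells in their bone marrow niche. Its promoter region (chr1:130487603-130488769), 107 bp inside the gene, held 2.90 and 2.57 CPM in WT and 0.418 and 0.666 in KO, a change of −2.33 ± 0.27 (adjusted p = 9.31e-14). At Cd79a, which encodes a signalling chain of the pre-B receptor (chr7:25682597-25683239), 1.53 and 1.76 CPM stood against 0.292 and 0.311 (−2.43 ± 0.35, adjusted p = 2.60e-09). The start of Syk, the tyrosine kinase of that receptor (chr13:52678086-52679157), fell from 2.79 and 3.12 to 1.42 and 1.38 CPM (−1.08 ± 0.21, adjusted p = 9.84e-06). All KO libraries were below all WT libraries at these 3 genes. The authors' input subtraction took 55.9% of the reads of the Cd79a region, 45.6% at Cxcr4 and 19.7% at Syk, and with input-subtracted counts all 3 kept their calls. At a required change of more than 1.5-fold Syk missed the threshold (adjusted p = 0.104).

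Losses near starts with weaker statistical support were found at the recombinase gene Rag1 and at transcription factor genes. The region upstream of Rag1 (chr2:101490573-101490847) held 3.59 and 4.33 CPM in WT and 2.80 and 2.40 in KO (−0.61 ± 0.17, adjusted p = 0.00355). At Foxo1, whose product drives Rag expression, the region at 205 bp was low in all libraries, with 0.496 and 0.698 CPM against 0.167 and 0.133 (−1.96 ± 0.58, adjusted p = 0.00903) and with 4 and 3 KO reads. Pax5, which fixes B cell identity, had 0.725 and 1.14 CPM against 0.251 and 0.621 (−1.11 ± 0.38, adjusted p = 0.0302). The reference gene Actb had 2.44 and 1.84 CPM at its start against 0.960 and 1.38 (−0.87 ± 0.23, adjusted p = 0.00301), so the losses were not limited to B cell genes. Each of these 4 calls was lost when 1 library was left out: without WT 2 adjusted p was 0.126 at Rag1, 0.173 at Foxo1 and 0.406 at Pax5, and without WT 1 it was 0.116 at Actb. It was also lost without KO 2 at Rag1 (0.0923) and Foxo1 (0.130), and without KO 1 at Foxo1 (0.0935), Pax5 (0.476) and Actb (0.147). DESeq2 did not call Rag1 (0.164) or Actb (0.166), input-subtracted counts did not call Foxo1 (0.0660) or Pax5 (0.269), and library totals did not call Pax5 (0.0568).

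Other pre-B genes did not pass the test at or near their starts. At Klf2, a quiescence factor, WT held 7.67 and 7.27 CPM and KO 7.48 and 8.30 (0.08 ± 0.11, adjusted p = 0.71). The adaptor gene Blnk had 2.40 and 2.17 against 3.05 and 3.02 (0.41 ± 0.18, adjusted p = 0.112). The interleukin 7 receptor gene Il7r, the early B factor gene Ebf1, Ccnd3, Bcl6 and the coactivator gene Pou2af1 also missed the threshold, with log2 values from −0.39 ± 0.16 (Ebf1) to 0.37 ± 0.44 (Ccnd3). Blnk passed when scaled to library totals (adjusted p = 0.0344), and Ebf1 when scaled to the low regions (0.00276) or with input-subtracted counts (0.0250).

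**Figure D3:**
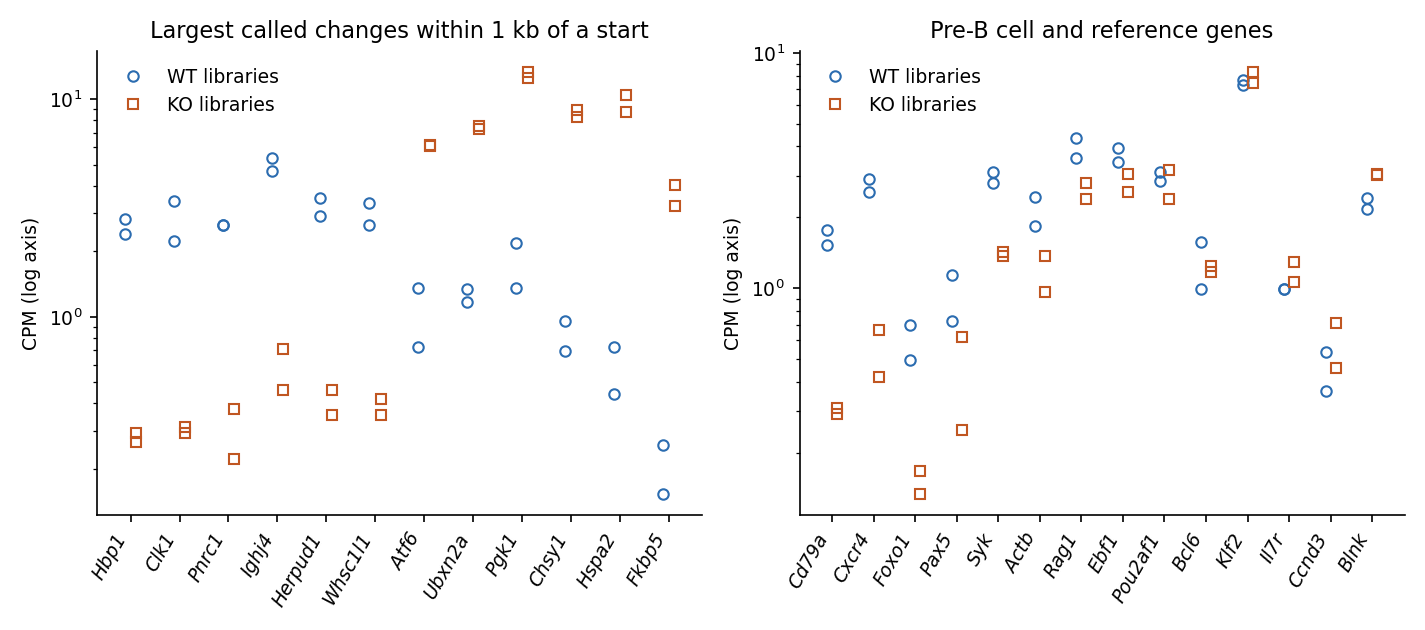
CPM (log axis) in each WT library (blue circles) and each KO library (orange squares). Left, the 6 largest called losses and 6 largest gains within 1 kb of a start, right, the pre-B and reference genes with a region there, ordered by fold change. WT and KO points do not overlap on the left, by the rule that chose these regions, while at Klf2 and Pou2af1 they do.

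The immunoglobulin heavy chain locus held a wide region of distal loss. The stretch upstream of Ighm (chr12:114662215-114665333), between the J segments and the mu constant gene, where the intronic enhancer is known to lie, held 62.8 and 67.5 CPM in WT and 11.9 and 11.3 in KO. This is a 5.63-fold loss (log2 −2.49 ± 0.06, adjusted p = 5.42e-91) with 1646 and 1839 reads in WT and 284 and 254 in KO. The adjoining region over Ighj4, a joining segment (chr12:114665932-114667754), fell from 5.38 and 4.70 to 0.459 and 0.710 CPM (−3.10 ± 0.22). The small region just downstream at chr12:114661877-114662175 held 3.40 and 4.07 against 3.09 and 3.28 CPM and was not called (−0.23 ± 0.16). Over a window of chromosome 12 that spans the locus, 20 regions were higher and 49 lower of 340, with a median of −0.01. Over all tested regions 5.9% were higher and 10.6% lower.

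The kappa light chain locus recombines at this stage. In the window of chromosome 6 from 67 to 71 Mb, 26 regions were higher and 18 lower of 242, with a median of 0.05. For all tested regions the shares were 5.9% higher and 10.6% lower. Its strongest region, near Igkv13-82 (chr6:68929404-68929516), held 148 and 147 CPM in WT and 134 and 140 in KO (−0.11 ± 0.03, adjusted p = 0.00686). The call was lost when any 1 library other than KO 2 was left out. It was also lost scaled to library totals (−0.00259, adjusted p = 0.967), by DESeq2 (0.115) and with input-subtracted counts (0.349).

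Further distal losses lay at Tex14, Arrdc3, Ywhaz, Hus1 and Gpr52. Near Arrdc3, an arrestin-like gene (chr13:81024479-81025789), WT held 3.47 and 3.56 CPM and KO 0.626 and 0.621 (−2.49 ± 0.24). Inside Ywhaz, a 14-3-3 gene (chr15:36722479-36724412), 5.57 and 5.80 CPM stood against 0.919 and 1.29 (−2.37 ± 0.19). Upstream of the checkpoint gene Hus1, a 127 bp region fell from 8.32 and 8.66 to 1.71 and 2.00 CPM (−2.20 ± 0.15).

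Gains at starts were fewer than losses, and among called start regions their median log2 change was 1.06, against −1.44 for the losses. At the start of Pgk1, a glycolytic kinase gene (chrX:103382062-103382650), WT held 2.18 and 1.36 CPM and KO 12.5 and 13.4, a 7.33-fold gain (log2 2.87 ± 0.14, adjusted p = 5.87e-48). At the start of Ubxn2a, a ubiquitin adaptor gene (chr12:4913902-4914496), 1.34 and 1.17 CPM stood against 7.52 and 7.32 (2.56 ± 0.17). At Atf6, a transcription factor gene of the unfolded protein response, 0.725 and 1.36 stood against 6.14 and 6.08 (2.54 ± 0.18). By the rule that chose them, both KO libraries were above both WT libraries at each. Near a start without overlapping it, Fkbp5, a cochaperone gene of steroid receptors, gained 4.12 ± 0.30 at 8 bp. Hspa2, a heat shock gene, gained 4.03 ± 0.19 at 649 bp, and Chsy1, a chondroitin synthase gene, 3.38 ± 0.18 at 343 bp. The WT levels behind these were low, with 4 and 7 reads at Fkbp5 and 19 and 12 at Hspa2.

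The named distal gains were short. Those near Arfgap3 (3.8 ± 0.17), Setbp1 (3.77 ± 0.30), Rere (3.61 ± 0.24), Birc5 (3.6 ± 0.30), Naa20 (3.59 ± 0.28) and Zfp821 (3.53 ± 0.25) were 112 to 184 bp long. The Arfgap3 region (chr15:83156634-83156745) held 0.573 and 0.881 CPM in WT and 10.02 and 10.5 in KO. Over all regions called at 2-fold or more, the median length was 134 bp for gains and 249 bp for losses.

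2 stretches of the genome known for repeats rose as blocks. All 37 tested regions of chromosome 9 between 3000307 and 3038089 were higher in KO, summing to 823 and 797 CPM in WT and 5271 and 5406 in KO, with a median log2 change of 2.96. Near 98.5 Mb of chromosome 2, all 3 regions rose, from 509 and 502 to 2235 and 2311 CPM. The ribosomal RNA unit Rn45s (chr17:39979960-39985845) went from 139 and 142 to 428 and 427 CPM (log2 1.61), while of the 8 tested regions around it 1 was higher and 1 lower (median 0.19). The authors' input subtraction took 5.27% and 5.23% of the KO reads and 2.71% and 3.43% of the WT reads. KO had no input of its own genotype in this subtraction, and the part of input reads in these blocks was not tested.

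Counts were also summed over all regions nearest each gene, which mixes the start with distant regions. CPM of gene sums and of single regions were scaled in separate fits. The CPM of regions given beside a gene sum therefore do not add up to it. Of 20510 genes tested, 7575 (36.9%) were called, 3339 (16.3%) higher and 4236 (20.7%) lower in KO, with a median of 0.01. The direction split again moved with the scaling, to 4289 and 3400 with library totals and to 1546 and 8122 with scaling to the low regions. When the sums were kept to regions within 1 kb of the start, 1723 of 4979 genes were called.

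The counts of each list below are to be read against the 16.3% higher and 20.7% lower over all genes, and no list was tested against them. Of the pre-B receptor and Ig recombination list 23 of 25 genes were measured, of which 9 were higher and 5 lower, with a median of −0.01. The end-joining kinase gene Prkdc rose from 128 and 126 to 188 and 198 CPM (0.60 ± 0.03), with most of it in a short region inside the gene that held 78.4 and 75.6 CPM in WT and 115 and 120 in KO. Dntt, the terminal transferase gene, rose from 13.7 and 13.2 to 20.02 and 20.4 (0.59 ± 0.08), and Blnk from 29.1 and 25.9 to 33.5 and 33.5 (0.28 ± 0.06), a call lost with input-subtracted counts (adjusted p = 0.0811). Dclre1c, the Artemis nuclease gene, fell from 137 and 140 to 102 and 102 CPM (−0.45 ± 0.03), again through a region inside the gene that held 103 and 105 CPM in WT and 67.8 and 68.7 in KO. Gene sums and starts could move in opposite directions. Summed, Rag1 rose by 0.19 ± 0.04 and Foxo1 by 0.15 ± 0.03, while within 1 kb of the start Rag1 changed by −0.53 and Foxo1 by −1.88. Scaled to the regions of lowest signal, neither summed gain passed the test (adjusted p = 0.101 for the Rag1 gene sum and 0.418 for the Foxo1 gene sum). Over the same list, 7 of the 11 genes with a region within 1 kb were lower there and 1 higher (median −1.08), against 1128 lower and 427 higher of 4945 over all genes (median −0.05).

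Of 30 B lineage transcription factor genes 6 were higher and 11 lower, with a median of −0.05. Relb, an NF-kB gene, fell most, from 8.29 and 7.49 to 3.96 and 4.33 CPM (−0.93 ± 0.14), through its start region (chr7:20214300-20214990), which went from 2.86 and 2.72 to 0.543 and 0.355 CPM. Runx1 fell by 0.22 ± 0.03 and Tcf4, an E protein gene, from 214 and 218 to 185 and 182 (−0.23 ± 0.03). Within 1 kb of their starts 8 of 18 of these genes were lower and 1 higher. Other lists also held such losses. In the cohesin, CTCF and BRWD1 family list 8 of 14 were lower there and 1 higher. Of acetylation writers and erasers 4 of 5 were lower, and of housekeeping genes 3 of 5, with 1 higher. Of B lineage markers 4 of 8 were lower, and of proliferation genes 2 of 7, with 1 higher. No T cell, myeloid, erythroid or mature B marker was called there.

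Proliferation and early pro-B genes were measured in 25 of 29 cases, of which 3 were higher and 5 lower (median 0.03). Mycn, a MYC family gene of dividing progenitors, fell from 356 and 357 to 281 and 281 CPM (−0.34 ± 0.02), largely in a region upstream of the gene that went from 123 and 128 to 71.5 and 71.6 CPM. The replication helicase gene Mcm5 fell by 0.30 ± 0.05 and the mitotic cyclin gene Ccnb1 by 0.18 ± 0.04.

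In the cohesin, CTCF and BRWD1 family list 4 of 19 measured genes were higher and 2 lower (median 0.02). Ctcf rose from 36.3 and 36.4 to 70.8 and 74.0 CPM (0.99 ± 0.05), through a short region inside the gene (chr8:108174149-108174280) that went from 23.9 and 24.3 to 48.7 and 51.6 CPM. Its start region missed the threshold (−0.52 ± 0.20, adjusted p = 0.0574). The cohesin gene Rad21 rose by 0.58 ± 0.11. Brwd1 itself had 8 regions and no region within 1 kb of its start. Its sum was 46.7 and 47.6 CPM in WT and 48.1 and 44.1 in KO (−0.03 ± 0.05, adjusted p = 0.663). A small region upstream of the gene rose from 0.191 and 0.184 to 1.25 and 0.888 CPM (2.49 ± 0.45), and since the deleted part is not given, these values check no label.

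Beside 16.3% higher and 20.7% lower over all genes, glycolysis had 2 higher and 1 lower of 14 (median 0.12) and oxidative phosphorylation 3 higher and 2 lower of 17 (median 0.05). Pgk1 rose by 1.41 ± 0.08 and the isomerase gene Tpi1 by 0.35 ± 0.03, while the phosphofructokinase gene Pfkp fell by 0.19 ± 0.04. Cox5a, with a single region, fell by 3.39 ± 0.74 from 0.527 and 0.782 CPM to 0.0550 and 0.0585 CPM. Of 11 measured acetylation writers and erasers 1 rose (Crebbp, which encodes CBP, by 0.29 ± 0.07) and 1 fell (Kat5, which encodes TIP60, by 1.81 ± 0.34). The Crebbp call was lost by DESeq2 (adjusted p = 0.0939) and scaled to the low regions (0.0509), and just upstream of its start Crebbp was lower (−1.40 ± 0.41). Of 13 housekeeping genes 3 rose and 2 fell, with Pgk1 and Actb among those that rose. The Actb gene sum (0.19 ± 0.07) lost its call without WT 2 (adjusted p = 0.112) or KO 2 (0.08, 0.509), by DESeq2 (0.289), with input-subtracted counts (0.151) and scaled to the low regions (0.07, 0.424).

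The sums did not single out the B lineage among blood cells. The 8 measured of 10 B lineage markers summed to 453 and 449 CPM in WT and 411 and 423 in KO, and the 12 T cell markers to 584 and 583 and to 543 and 538. The 10 measured of 12 myeloid markers summed to 402 and 400 and to 397 and 400, and the 8 of 9 erythroid markers to 228 and 229 and to 205 and 214. The 8 mature B markers summed to 239 and 242 in WT and 261 and 267 in KO, with 2 higher (Cr2 and Cd22) and none lower. These sums are not scaled for length. Igll1 and Vpreb1, the surrogate light chain genes of the preceding stages, had no region assigned. Of the myeloid markers 2 were higher and 4 lower. Fcgr3, an Fc receptor gene, rose from 56.8 and 60.9 to 88.9 and 94.3 CPM (0.64 ± 0.04), with 8 of its 13 regions higher. Csf1r fell by 0.42 ± 0.04. Whether other cells in the sort took part was not tested.

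**Figure D4:**
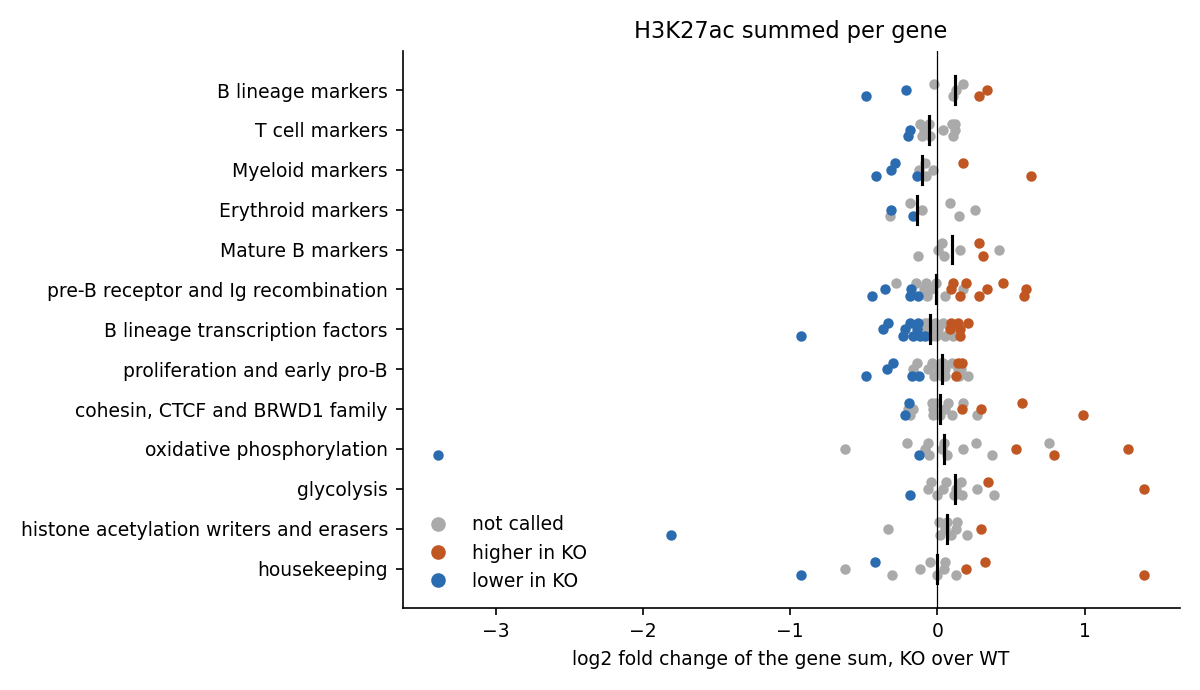
Log2 fold change (KO over WT) of H3K27ac summed per gene, 1 point per measured gene of each list, coloured by call, with the list's median as a black bar. List medians run from −0.14 to 0.12.

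H3K27ac regions were also counted by the proteins bound there in WT cells, beside 10.6% lower and 5.9% higher over all regions. Of 17668 regions at WT NIPBL peaks (the cohesin loader) 6079 (34.4%) were lower and 513 (2.90%) higher, against 8.65% and 6.15% away from them. Of 25842 regions at WT WAPL peaks (the release factor) 8729 (33.8%) were lower and 1177 (4.55%) higher, against 7.73% and 6.07% away from them. At WT SMC3 peaks 1701 of 4497 (37.8%) were lower and 580 higher, at WT RAD21 peaks 854 (35.2%) and 509 of 2429, and at WT CTCF peaks 528 (38.3%) and 201 of 1378. Away from these peaks 10.1%, 10.3% and 10.4% were lower. The medians in these classes ran from −0.13 to −0.16. At WT H3K4me1 peaks 20086 of 113021 regions were lower and 5955 higher (median −0.05), and away from them 4817 of 122152 lower and 7925 higher (median 0.11). Regions at these peaks were longer, with medians of 184 to 235 bp against 128 to 150 bp away from them, and longer regions were called more often. They also held more signal per region, which makes a small change easier to call. The 17668 regions at NIPBL peaks summed to 237085 and 238791 CPM in WT. The 217505 regions away from them summed to 798860 and 800514. The part of length or signal in these shares was not tested.

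The peak lists nested one within the other. The WT lists held 202636 and 202735 peaks and the KO lists 153535 and 154573. Of 174488 WT consensus peaks (those of replicate 1 that overlap replicate 2) 72.0% overlapped a KO consensus peak (exact 95% interval 71.8% to 72.2%), and of 131262 KO consensus peaks 95.7% overlapped a WT one (95.6% to 95.9%). The intervals cover counting error only. Between replicates 86.1% of the peaks of WT 1 and 85.5% of those of KO 1 overlapped the other list. Of the regions that hold WT and no KO consensus peaks, 48327 were tested, 3664 were lower and 1124 higher, with a median of −0.06. Over all tested regions 10.6% were lower and 5.9% higher. Most of these regions were not called, but they were weak. Their median CPM was 0.992 and 0.991 in WT and 0.960 and 0.976 in KO. Regions with both peaks had medians of 2.71 and 2.72 in WT and 2.67 and 2.66 in KO. The WT libraries also held more reads, and the part of depth in the number of peaks was not tested.

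H3K4me1, compared in the same way, lost signal at starts in the same direction and to a larger extent. Of its 179582 tested regions 29494 (16.4%) were called, 11573 (6.44%) higher and 17921 (9.98%) lower in KO, and of the 3539 at starts 3045 were lower and 178 higher in KO (median −1.47). Several regions lost in H3K27ac fell in H3K4me1 too, while the region upstream of Rag1 was not called there (−0.31 ± 0.17, adjusted p = 0.237). The region over Hbp1 held 20.7 and 22.4 CPM in H3K4me1 WT and 1.22 and 1.57 in KO, that over Cxcr4 40.5 and 44.2 against 5.65 and 4.94, and the wide one over Ighm and the J segments 215 and 219 against 31.4 and 33.4. At Syk the values were 37.6 and 38.7 against 4.80 and 5.52. The gains were not shared in this way: at Pgk1 the H3K4me1 libraries held 9.46 and 9.34 CPM in WT and 8.99 and 8.77 in KO, and at Ubxn2a they fell from 6.63 and 7.65 to 1.03 and 1.28. An exception was Hspa2, where H3K4me1 rose from 1.88 and 1.88 to 6.38 and 6.97 CPM.

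The difference between the marks was tested as an interaction at the shared regions. Of 150112 regions 17519 (11.7%) were called, 7138 (4.76%) where the KO change was higher in H3K27ac than in H3K4me1 and 10381 (6.92%) where it was lower. Of 426 shared start regions 166 were called with a less negative change in H3K27ac and 8 with a more negative one (median difference 0.76). On a common scale these start regions summed to 1901 and 1908 CPM in H3K27ac WT, 1553 and 1561 in H3K27ac KO, 6032 and 6090 in H3K4me1 WT and 2380 and 2379 in H3K4me1 KO.

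**Figure D5:**
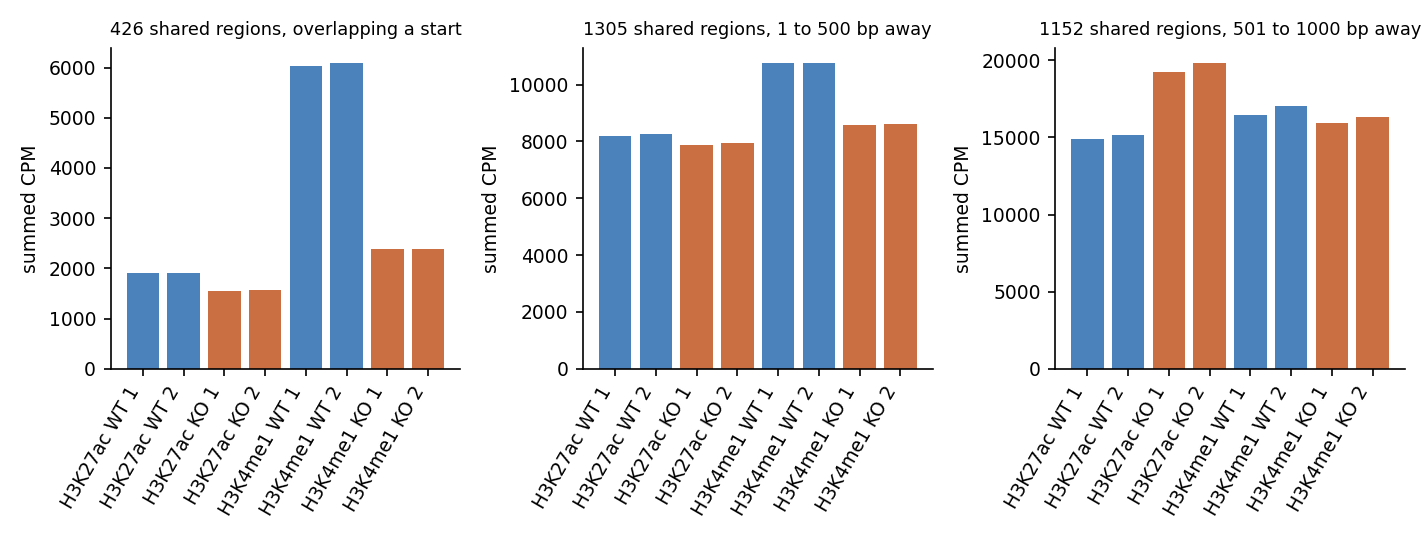
Summed CPM per library over shared regions that overlap a gene start, or lie within 500 bp or between 500 and 1000 bp of one, for H3K27ac and H3K4me1, with WT in blue and KO in orange, grouped by title. At starts the H3K4me1 WT libraries hold 6032 and 6090 CPM and the H3K27ac libraries between 1553 and 1908.

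The direction at starts rests on the grouping by title. When the libraries were grouped by the sample names inside their peak lists, so that those titled H3K4me1 WT stood for H3K27ac KO, the median log2 change of H3K27ac at shared start regions turned from −0.73 to 2.37, with 322 of 426 regions higher and 13 lower. Under the same grouping H3K4me1 turned from −1.76 to 1.09. Which of these groupings holds was not tested. The count columns given above only tie lists to columns of the same title. Each loss and gain named here is therefore a difference between libraries labelled WT and KO by title.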

How the data were processed

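H3K27ac ChIP-seq of small pre-B cells was analysed in 2 WT and 2 KO libraries, grouped by title, with H3K4me1 beside it. Per the submitters' processing notes the authors used BWA, Picard, MACS2, bedtools, featureCounts and edgeR with the mm9 build, and versions are not given in the sources used here. The deposited tables hold raw read counts per merged region, input-subtracted counts (used as a score, since they are no longer plain counts) and normalized signal, of which the authors' gene names and distances to the start were taken. The authors' peak lists, 1 per library, give a −log10 score per peak. The tables also hold 2 columns of external inputs, which were not used.

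Raw counts were tested with edgeR 4.0.16 (R 4.3.3; quasi-likelihood test, TMM scaling, filterByExpr, Benjamini-Hochberg adjusted p under 0.05), after the code was tested on simulated data. With 100 regions changed at each fold, the simulation recovered 20% of 1.5-fold and 53% of 2-fold changes. Of its 78 calls 5 were at unchanged regions. Far fewer regions were changed there than were called in the data, so these shares may not carry over. A region not called may still differ. SE is the log2 fold change divided by the square root of F. CPM values are scaled by the library sizes of each fit, separately for regions, gene sums and shared regions. Gene sums add all regions whose nearest start, within 200 kb, is the gene's. Peaks and regions were overlapped with bedtools 2.31.1 at 1 bp or more. Tables were made in Python 3.11.15 with pandas 2.3.3, numpy 2.4.6 and scipy 1.17.1, and plots with matplotlib 3.10.9. Correlations used log2(CPM + 1). Named regions are the 6 with the largest called change per direction, within 1 kb of a start and distal, plus fixed pre-B and reference genes and up to 3 called genes per list. The repeat blocks, the Crebzf region and single regions given beside a gene sum were chosen after their values were seen. The members and lists were chosen with earlier results of these data known. Alternatives were other scalings, DESeq2 1.42.0, no filter, input-subtracted counts, a 1.5-fold threshold, leaving out each library and the replicate number as a block. Replicate numbers did not pair the libraries (r = 0.00632 between deviations of same-numbered libraries, over 235173 regions).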

Additional observations from a re-analysis of the deposited data

Results flagged for a closer look

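The change of H3K27ac between WT and KO differed from that of H3K4me1 in a test of the difference itself (interaction of mark and genotype, edgeR's quasi-likelihood test) at 17519 shared regions. Among the regions named in the report, the log2 difference between the marks' changes was 5.22 at Ubxn2a, 5.06 at Birc5, 3.63 at Zfp821, 3.34 at Atf6, 2.99 at Pgk1 and 2.24 at Hspa2, all of them regions that gained H3K27ac. It was 1.55 at Pou2af1, 1.12 at Actb and 1.09 at Bcl6, where H3K4me1 fell further than H3K27ac. All these values rest on the grouping of libraries by title, and the peak lists of 2 of the 4 groups carry the name of another sample.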

How the results depend on the processing

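Of the counts of called H3K27ac regions, 38783 became 58266 when scaled to the low regions, 12351 (2560 higher, 9791 lower) with DESeq2 and 4264 above 1.5-fold. Called gene sums went from 7575 to 3405 with DESeq2 and to 1723 within 1 kb of starts, and called H3K4me1 regions from 29494 to 10916 with DESeq2. The cause was not tested, save that fewer genes entered the sums within 1 kb. With the replicate number as a block 40062 regions, 7978 genes, 30011 H3K4me1 regions and 18530 interactions were called. Leaving out 1 library gave 25893 to 30162 regions, 5915 to 6429 genes, 21217 to 24009 H3K4me1 regions and 12733 to 15035 interactions. Scaled to the low regions 24926 interactions were called.

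The median at starts was −0.61 with library totals, −0.91 scaled to the low regions, −0.82 with input-subtracted counts and −0.51 without regions rich in input (an alternative chosen after seeing the data), and −0.75 to −0.69 without 1 library. It turned to 2.37 at shared start regions under the names inside the peak lists, also chosen after seeing the data. The KO minus WT share of reads near starts was 0.474 points within 3 kb and 0.0121 without the region of highest CPM. The mean r between WT and KO was 0.967 at an overlap of 1 bp. The share of WT peaks that overlap KO was 70.6% at an overlap of 50% of the peak, 72.8% for strong peaks, 62.7% under the names inside and 63.0% to 79.4% without 1 library, and the share of KO peaks 94.9%, 97.1%, 92.9% and 89.7% to 97.3%, or 94.2% for the union of replicates.

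Signs turned for small region values: Pou2af1 (0.00825 with library totals, −0.33 to 0.0773 without 1 library), Bcl6 (0.0274 and −0.38 to 0.28), Klf2 (−0.12 scaled to the low regions, −0.00518 to 0.15 without 1 library) and Ptprn2 (−0.13 scaled to the low regions). They turned for the Brwd1 gene sum (0.00203 with library totals, −0.0964 to 0.0308 without 1 library) and, kept to 1 kb of the start, for the sums of Actb (−0.74), Cd79a (−1.17), Cd79b (−1.01), Crebbp (−1.33), Ctcf (−0.44), Dclre1c (0.17), Foxo1 (−1.88), Gata1 (0.35), Gata3 (0.66), Hbb-b1 (0.0712), Mycn (0.0814) and Rag1 (−0.53). The cause was not tested. Few reads at many starts limit the precision there, as at Foxo1 with 4 and 3 reads in KO. The region nearest Ptprn2, the strongest of the heavy chain window, was not called in the main fit (0.07 ± 0.03, adjusted p = 0.0681). Scaling alone gave it calls in both directions. It was higher with library totals (0.18, adjusted p = 9.35e-10) and lower scaled to the low regions (−0.13, 0.000397).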
